A study of Mus musculus with 9 samples.

Results

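Heat shock proteins and their co-chaperones were examined in mouse hearts after myocardial ischemia-reperfusion injury (MIRI). The members were 10 genes chosen by symbol, namely Hspa1a, Hspa1b, Hspa8, Hsph1, Hsp90aa1, Dnajb1, Bag3, Hspb1, Hspb7 and Cryab, and all 10 were found among the 54532 gene IDs of the count table. Bulk RNA-seq was done on the hearts of male wild-type C57BL/6J mice aged 8 to 10 weeks, with 3 libraries in each of 3 groups, each library from a separate mouse. In the MIRI group the left anterior descending coronary artery was tied for 30 min and reperfused for 24 h. Mice of the GXNI group had the same operation and were given 9 mL/kg Guanxinning injection (GXNI), a preparation of the herbs Danshen and Chuanxiong, through the tail vein around the time of the ischemia, when the other groups were given saline. Sham mice had the suture passed but not tied. The labels name cardiomyocytes as the cell type, whereas RNA was extracted from heart tissue, and the libraries held transcripts of macrophages, fibroblasts, endothelial cells and red cells as well as cardiomyocytes.

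Heat shock proteins are molecular chaperones that hold unfolded proteins in solution, refold them or pass them on for degradation. HSP70 proteins bind short hydrophobic stretches in a cycle of ATP binding and hydrolysis, HSP40 (DnaJ) co-chaperones deliver substrates and start hydrolysis, and exchange factors such as HSP110 and BAG proteins release the substrate again. HSP90 acts later on kinases, receptors and other clients, and the small heat shock proteins, which use no ATP, hold unfolding proteins and are abundant in heart muscle, where they guard the sarcomere and the cytoskeleton. Transcription of the inducible members is driven by heat shock factor 1 through heat shock elements, which are inverted repeats of the bases GAA in promoters.

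The labels of 2 libraries are in doubt. The published gene tables of this series were matched by the deposited counts only when the library labelled MIRI 2 and the library labelled GXNI 3 changed places, as given with the processing. Values below follow the deposited labels, and each comparison that the exchange touches is given under both groupings. The comparison of all ischemia-reperfusion libraries with sham does not depend on it. Total counts ranged from 17119454 to 22811295 per library, and the unit of level throughout is CPM, the counts scaled to library size after TMM normalisation, with 3 counts equal to at most 0.175 CPM.

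The promoters of 7 members were found in the RefSeq table for GRCm38.p6, which holds 250 bases before and 50 after each gene start (Hspa8, Hsp90aa1 and Cryab were not matched). The 250 bases upstream of the start of 4 members are shown as examples, namely the nearly identical Hspa1a and Hspa1b pair, a member with 2 heat shock elements (Hspb1) and a member with no match (Hspb7). They lie at chr17:34972157-34972406 (reverse strand), chr17:34959239-34959488 (reverse strand), chr5:135887669-135887918 (forward strand) and chr4:141420529-141420778 (forward strand). Capitals mark a heat shock element of 2 units, GAANNTTC or TTCNNGAA, each of which reads the same on both strands.
Hspa1a: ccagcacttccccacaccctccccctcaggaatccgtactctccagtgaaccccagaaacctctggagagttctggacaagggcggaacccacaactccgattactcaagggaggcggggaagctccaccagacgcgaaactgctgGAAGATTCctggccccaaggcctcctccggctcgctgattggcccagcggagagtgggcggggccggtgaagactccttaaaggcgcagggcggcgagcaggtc
Hspa1b: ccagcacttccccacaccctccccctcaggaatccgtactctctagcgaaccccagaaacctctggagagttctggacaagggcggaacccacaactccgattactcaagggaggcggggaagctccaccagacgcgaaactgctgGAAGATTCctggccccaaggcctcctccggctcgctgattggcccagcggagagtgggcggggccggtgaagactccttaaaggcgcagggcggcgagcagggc
Hspb1: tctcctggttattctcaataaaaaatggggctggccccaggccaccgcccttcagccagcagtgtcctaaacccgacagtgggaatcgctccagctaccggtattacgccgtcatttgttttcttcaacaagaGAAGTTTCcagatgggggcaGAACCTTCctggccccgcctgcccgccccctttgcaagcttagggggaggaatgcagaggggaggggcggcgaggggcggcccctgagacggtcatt
Hspb7: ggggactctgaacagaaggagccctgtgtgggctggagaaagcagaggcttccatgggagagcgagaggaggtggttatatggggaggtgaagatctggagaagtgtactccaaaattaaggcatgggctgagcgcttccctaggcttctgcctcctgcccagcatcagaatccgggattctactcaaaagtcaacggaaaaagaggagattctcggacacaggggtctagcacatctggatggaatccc
The upstream bases of Hspa1a and Hspa1b were identical at 247 of 250 positions, and each held 1 element, which began 104 bases before the start. Hspb1 held 2 elements, which began 117 and 97 bases before the start, and the window of Hspb7 held no match. An element of 2 units was present in 15.1% of the 32851 promoter windows of the table. Among the members it was also found in Hsph1 and, after the start, in Bag3, and there was no match in Dnajb1. An element of 3 alternating units with 2 bases between neighbours was found in Hsph1 and in 0.603% of all windows. The 2-unit matches of Hsph1 partly lie inside its 3-unit element, and this element lies after the gene start. A relation between elements and expression was not tested.

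In sham hearts Hspb7 and Cryab were the most abundant members. As CPM per kilobase of exon, the mean sham level was 877 ± 74.4 (SD, n = 3) for Hspb7, 713 ± 41.4 for Cryab, 197.8 ± 12.4 for Hspa8 and 193.9 ± 23.2 for Hspb1. Hspa8 and Hspb1 did not differ beyond their spread. Bag3 followed at 72.6 ± 4.79, Hsp90aa1 at 24.6 ± 1.77, Dnajb1 at 5.65 ± 0.369 and Hsph1 at 4.35 ± 0.210 on the same scale. The inducible HSP70 genes were the lowest, with 0.957 ± 0.150 CPM per kilobase for Hspa1b and 0.691 ± 0.0439 for Hspa1a. These levels were not corrected for sequence shared with other genes, the share of which differs between members, as given below. By the mean over the 6 ischemia-reperfusion libraries the order changed at both ends. Cryab at 1625 ± 808, Hspb1 at 1607 ± 1139 and Hspb7 at 1501 ± 460 CPM per kilobase (SD, n = 6) were then within 1 SD of each other, and Hspa1b at 45.45 ± 60.4 and Hspa1a at 34.2 ± 45.05 stood above Dnajb1 at 9.18 ± 4.89 and Hsph1 at 7.80 ± 4.72, though with an SD larger than their mean. The order did not change in every library. In MIRI 2, GXNI 1 and GXNI 2, Hspa1a and Hspa1b stayed the lowest per kilobase. In the same libraries Hspb7 stayed above Cryab, and Cryab above Hspb1. Together the 10 genes took 0.460 to 0.503% of all counts in sham libraries, 0.754 to 1.56% in MIRI libraries and 0.422 to 1.59% in GXNI libraries.

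**Figure D1:**
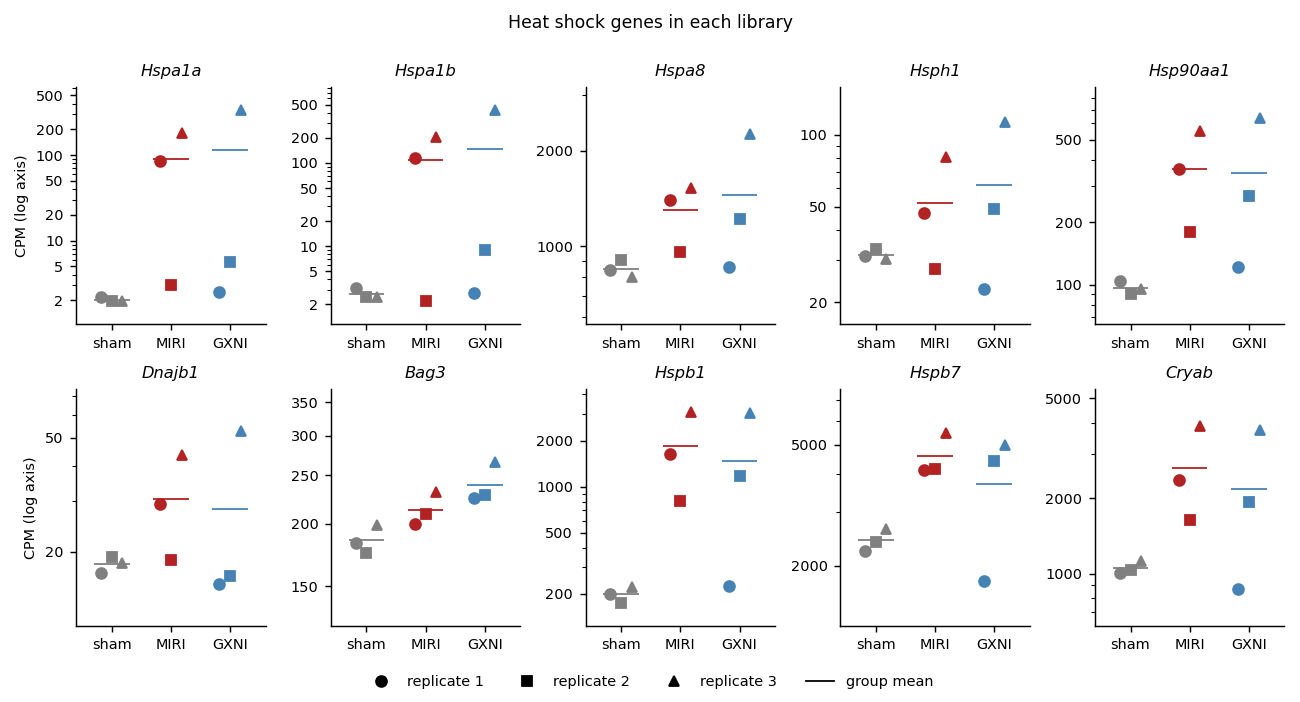
CPM of each of the 10 genes (y axis, log scale) in the 3 libraries of each group (x axis), with a marker shape for each replicate number and a line at the group mean. The sham libraries lie close together, MIRI 2 lies near sham for Hspa1a and Hspa1b but above sham for Hspb1, Hspb7, Cryab and Hsp90aa1, and GXNI 1 lies between 0.721 and 1.27 times the sham mean for all 10 genes.

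The largest differences were in the inducible HSP70 genes, Hspa1a and Hspa1b, which encode nearly the same protein and are kept low in unstressed cells. Hspa1a (ENSMUSG00000091971, GRCm38 chr17:34969190-34972156, reverse strand) was at 2.20, 1.98 and 1.97 CPM in sham 1 to 3, at 84.1, 3.03 and 179.8 CPM in MIRI 1 to 3 and at 2.497, 5.57 and 334.3 CPM in GXNI 1 to 3. Hspa1b (ENSMUSG00000090877, GRCm38 chr17:34956436-34959238, reverse strand) was at 3.17, 2.43 and 2.45 CPM in sham, at 113.2, 2.20 and 206.9 CPM in MIRI and at 2.75, 9.06 and 430.2 CPM in GXNI libraries. Both genes were thus high in MIRI 1, MIRI 3 and GXNI 3, where Hspa1a stood 40.6-fold, 86.7-fold and 161-fold over the sham mean. Both were 2.70-fold (Hspa1a) and 3.38-fold (Hspa1b) over it in GXNI 2 and within 1.5-fold of it in MIRI 2 and GXNI 1.

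Hspa1b and Hspa1a lie 9952 bp apart on chromosome 17, and 58.8% of the 50-base windows of Hspa1a transcripts also occur in Hspa1b, so reads could be split between them. The share of Hspa1b in their summed counts was 55.1 to 59.0% in sham libraries, 57.4% in MIRI 1 (95% exact binomial interval 55.9 to 58.9%, of 4215 counts), 53.5% in MIRI 3 (52.5 to 54.5%, of 9019) and 56.3% in GXNI 3 (55.4 to 57.1%, of 13169). It was 42.0% (31.6 to 53.0%) of only 88 counts in MIRI 2. These intervals cover counting error only. Added into 1 feature, the pair differed between MIRI and sham by 5.39 on the log2 scale (SE 1.32, unadjusted p = 0.00466 by edgeR). Hspa1l, the testis-type HSP70 gene that starts 547 bp from the start of Hspa1a, was at 1.68 to 2.09 CPM in sham, 4.45 to 5.34 CPM in MIRI and 1.298 to 4.47 CPM in GXNI libraries, with its highest value in MIRI 2, where Hspa1a and Hspa1b were near sham.

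Hspa8 encodes the constitutive HSC70, and Hsph1 the HSP110 exchange factor that works with it. Hspa8 (ENSMUSG00000015656, GRCm38 chr9:40800984-40810087, forward strand) was at 846, 906 and 799.6 CPM in sham, 1404, 962 and 1531 CPM in MIRI and 863, 1223 and 2259 CPM in GXNI libraries. Hsph1 (ENSMUSG00000029657, GRCm38 chr5:149614287-149636376, reverse strand) was at 31.3, 33.3 and 30.3 CPM in sham, 47.2, 27.5 and 80.8 CPM in MIRI and 22.8, 48.9 and 112.7 CPM in GXNI libraries. All MIRI libraries lay above sham for Hspa8, while Hsph1 fell below the lowest sham library in both MIRI 2 and GXNI 1. The ratio of Hspa1a plus Hspa1b to Hspa8, per kilobase, was 0.00727 to 0.00952 in sham, 0.00807 in MIRI 2, 0.00908 in GXNI 1 and 0.0180 in GXNI 2, against 0.211 in MIRI 1, 0.378 in MIRI 3 and 0.507 in GXNI 3. MIRI 2 and GXNI 1 were within the sham range of this ratio, and the other 4 libraries were above it.

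Hsp90aa1, the inducible form of cytosolic HSP90, was above sham in every ischemia-reperfusion library, in contrast to its constitutive relative. Hsp90aa1 (ENSMUSG00000021270, GRCm38 chr12:110690605-110702728, reverse strand) was at 104.2, 90.5 and 95.4 CPM in sham, 360.2, 178.8 and 550.1 CPM in MIRI and 122.2, 269.2 and 640.6 CPM in GXNI libraries. All 6 ischemia-reperfusion libraries exceeded all 3 sham libraries, from 1.27-fold of the sham mean in GXNI 1 to 6.63-fold in GXNI 3. The constitutive Hsp90ab1 was at 1200 to 1341 CPM in sham and 1126 to 1549 CPM in the other libraries, and its groups overlapped. The ratio of Hsp90aa1 to Hsp90ab1 per kilobase was 0.0555 to 0.0607 in sham, 0.0825 in GXNI 1, 0.115 in MIRI 2, 0.142 in GXNI 2, 0.244 in MIRI 1, 0.271 in MIRI 3 and 0.343 in GXNI 3.

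**Figure D2:**
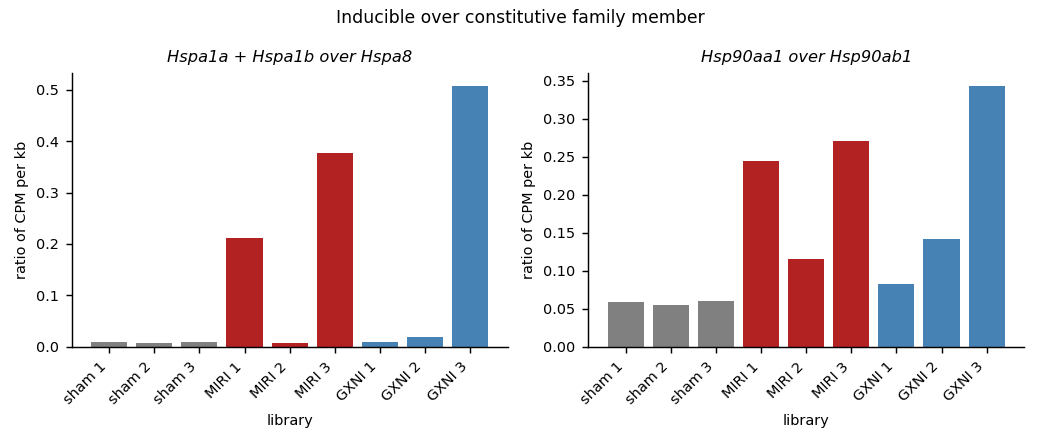
Ratio of CPM per kilobase (y axis) of Hspa1a plus Hspa1b to Hspa8 (left) and of Hsp90aa1 to Hsp90ab1 (right) in each library (x axis, coloured by group). The HSP70 ratio is under 0.02 in all but MIRI 1, MIRI 3 and GXNI 3, where it is 0.211 to 0.507, whereas the HSP90 ratio lies above its sham range of 0.0555 to 0.0607 in all 6 ischemia-reperfusion libraries.

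Of the co-chaperones, Dnajb1 is an HSP40 that activates HSP70, and Bag3 couples HSP70 and small heat shock proteins to autophagy and is needed to maintain the sarcomere. Dnajb1 (ENSMUSG00000005483, GRCm38 chr8:83608193-83612653, forward strand) was at 16.9, 19.2 and 18.3 CPM in sham, 29.4, 18.8 and 43.4 CPM in MIRI and 15.4, 16.4 and 52.9 CPM in GXNI libraries. Dnajb1 was above sham in MIRI 1, MIRI 3 and GXNI 3 and within or below the sham range in the other 3 ischemia-reperfusion libraries. Bag3 (ENSMUSG00000030847, GRCm38 chr7:128523616-128546981, forward strand) was at 183.3, 175.3 and 199.4 CPM in sham, 199.8, 209.7 and 231.5 CPM in MIRI and 225.1, 228.3 and 265.9 CPM in GXNI libraries. Bag3 did not overlap between sham and ischemia-reperfusion libraries, as did 8.40% of genes tested in the same direction. The margin was very small, with MIRI 1 at 199.8 and sham 3 at 199.4 CPM, and its largest ratio to the sham mean was 1.43 in GXNI 3. It overlaps 2610306O10Rik, which had at most 62 counts in a library, on the same strand.

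Hspb1 and Cryab had the same 3 highest libraries as the HSP70 genes, while Hspb7 did not. Hspb1 encodes HSP25 (HSP27 in humans), which binds actin and unfolding proteins, Hspb7 a heart and muscle form bound to filamin at the sarcomere, and Cryab the alpha-B crystallin that binds desmin and titin. Hspb1 (ENSMUSG00000004951, GRCm38 chr5:135887919-135889563, forward strand) was at 201.3, 175.3 and 223.1 CPM in sham, 1631, 803 and 3074 CPM in MIRI and 225.4, 1180 and 3027 CPM in GXNI libraries. All 6 ischemia-reperfusion libraries were above sham, but GXNI 1 exceeded the highest sham library by very little. MIRI 2 was at 4.04-fold and GXNI 2 at 5.93-fold of the sham mean for Hspb1, whereas Hspa1a was at 1.47-fold and 2.70-fold in the same libraries. Cryab (ENSMUSG00000032060, GRCm38 chr9:50751325-50756636, forward strand) was at 1007, 1034 and 1124 CPM in sham, 2355, 1635 and 3894 CPM in MIRI and 867, 1937 and 3728 CPM in GXNI libraries. Hspb7 (ENSMUSG00000006221, GRCm38 chr4:141420779-141425311, forward strand) was at 2241, 2392 and 2649 CPM in sham, 4141, 4173 and 5454 CPM in MIRI and 1775, 4408 and 4984 CPM in GXNI libraries. For both genes every ischemia-reperfusion library except GXNI 1 was above sham, and GXNI 1 was below the lowest sham library. Hspb7 was thus nearly equal in MIRI 1 and MIRI 2, while Hspa1a was at 84.1 CPM in the first of these and at 3.03 CPM in the other.

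Other genes carry some of the same sequence. Of the 50-base windows of the transcripts, 50.1% of those of Hspb1, 47.5% of Hsp90aa1 and 39.4% of Hspa8 also occur in another annotated gene, mostly the pseudogenes Hsp25-ps1, Gm12346 and Gm15459. These were counted at most 170, 177 and 0 times in a library. For Hspa1a and Hspa1b the shares were 66.3% and 62.3%, while Bag3 and Hsph1 shared no such window. How reads that match several genes were counted is not given, and such reads may have been lost. The levels and ratios per kilobase that compare different genes could be affected by this, which was not tested. Cryab and Hspb2 overlap head to head on opposite strands and share 13.3% of the windows of Cryab, and without a strand setting reads there could not be assigned to either. Hspb2 was at 43.4 to 49.2 CPM in sham, 70.2 to 87.9 CPM in MIRI and 49.4 to 79.8 CPM in GXNI libraries.

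**Figure D3:**
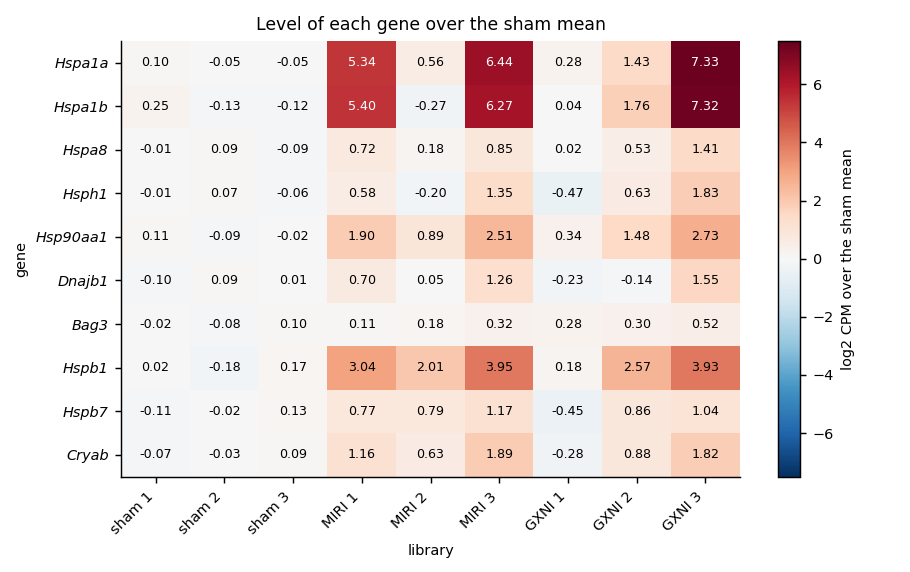
log2 ratio of the CPM of each gene (rows) to its sham mean in each library (columns), on a colour scale centred at 0. MIRI 1, MIRI 3 and GXNI 3 are the reddest columns, with 5.34, 6.44 and 7.33 for Hspa1a, while MIRI 2 shows 0.56 for Hspa1a and 2.01 for Hspb1, and GXNI 1 stays between -0.47 and 0.34.

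The first comparison, of the 6 ischemia-reperfusion libraries with the 3 sham libraries, asked which of the genes differ after injury whatever the treatment. A gene was called when its fold change was at least 1.5 and its unadjusted p at most 0.01 in edgeR's quasi-likelihood test, the thresholds of the study. Hspb1 was called higher, by 3.05 on the log2 scale (SE 0.75, unadjusted p = 0.00226, Benjamini-Hochberg adjusted p = 0.0852 by edgeR), and so was Hsp90aa1, by 1.87 (SE 0.50, unadjusted p = 0.00414, adjusted p = 0.0875). These were 2 of 10 members, against 5.52% of the 15207 genes tested that were called higher and 2.85% called lower. No member was called lower. Hspa1a had a larger difference of 5.63 with an SE of 1.86 (unadjusted p = 0.0129, adjusted p = 0.105 by edgeR), and Hspa1b one of 5.57 with an SE of 1.89 (unadjusted p = 0.0147, adjusted p = 0.108), so neither was called. The difference of Hspa1a was 4.75 without GXNI 3. In a fit blocked on replicate number it was 3.89, and that of Hspa1b was 3.82. The log2 difference was 1.19 (SE 0.42) for Cryab, 0.84 (SE 0.47) for Hsph1, 0.78 (SE 0.30) for Hspb7, 0.70 (SE 0.41) for Dnajb1, 0.69 (SE 0.28) for Hspa8 and 0.29 (SE 0.11) for Bag3.

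All 10 members had a positive difference, as did 7686 of the 15207 genes tested. The median of the members was 1.02 on the log2 scale, against 0.01 over all genes tested. An unadjusted p under 0.05 by edgeR was reached by 8 of 10 members and by 4488 of the 15207 genes. All 6 ischemia-reperfusion libraries lay above all 3 sham libraries in 4 members (Bag3, Hsp90aa1, Hspa1a and Hspb1), against 8.40% of genes tested. At the nearest libraries this was 199.8 against 199.4 CPM for Bag3 and 225.4 against 223.1 CPM for Hspb1. With DESeq2 in place of edgeR, 5 members were called higher, namely Hspa1a, Hspa1b, Hsp90aa1, Hspb1 and Cryab, against 5.18% of 29338 genes. The same number had an adjusted p of at most 0.05 with DESeq2, against 12.9% of the 16822 genes that were given one, while no member did with edgeR. Leaving out GXNI 1 gave 6 calls, against 9.57% of genes called higher in that fit, and leaving out MIRI 2 gave 4, against 9.67%. Without GXNI 2 there were 3, against 4.67%. Without sham 1 or sham 2 there were 0, against 2.19% and 1.63%, and without sham 3 there was 1, against 1.99%. In bulk tissue, fewer cells of a type and less RNA per cell cannot be told apart.

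The libraries with high HSP70 transcripts also differed in cell markers. The summed level of 8 cardiomyocyte markers, Myh6 among them, was 40120 to 43260 CPM in sham libraries, 45340 in MIRI 2 and 36650 in GXNI 1, and 27780 to 30930 CPM in the other 4 libraries. Not every marker followed the sum, since Actc1 was at 4118 to 5503 CPM in sham libraries, at 5351 to 10360 CPM in MIRI and at 3375 to 7500 CPM in GXNI libraries. The sum of 7 neutrophil markers was 25.2 to 51.0 CPM in sham libraries, 23.6 in MIRI 2 and 41.6 in GXNI 1, against 179.1 in GXNI 2 and 497.8 to 614.5 CPM in MIRI 1, MIRI 3 and GXNI 3. The sum of 6 macrophage markers was 323.6 to 353.1 CPM in sham, 234.2 to 330.9 in MIRI and 209.3 to 431.9 in GXNI libraries. The sum of 6 fibroblast markers was 843 to 925 CPM in sham, 612 to 793 in MIRI and 472 to 1114 in GXNI libraries, and that of 5 endothelial markers 501 to 705, 553 to 917 and 564 to 1046 CPM. Of 4 atrial markers, Myl7 and Sln were at 0 in some libraries, and the 4-gene sum, mostly Nppa, was 40.3 to 84.0 CPM in sham, 171.2 to 667 in MIRI and 55.9 to 729 in GXNI libraries. The others did not follow this sum. Myl7 and Sln were at 0 in MIRI 3 and GXNI 3, and Myl7, Sln and Myl4 were highest in MIRI 2, at 1.78, 1.37 and 3.50 CPM. The sum of 5 mesothelial markers was highest in GXNI 1 at 67.4 CPM, against 8.94 to 21.6 in the others. The sum of 3 smooth muscle markers was 93.3 to 245.5 CPM and that of 3 red cell markers 126.2 to 370.0 CPM over all libraries, and the sums of 4 adipocyte and 4 skeletal muscle markers were at most 5.70 and 2.25 CPM, with Adipoq, Lep and Myh4 among those at 0 in some libraries. All 8 cardiomyocyte markers were counted in every library. The part of cell composition in the differences of the heat shock genes was not tested.

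In MIRI against sham, which asks for the effect of the injury without treatment, 6 of 10 members were called higher and none lower, against 6.15% of 14644 genes called higher and 2.82% lower. Hspa1a differed by 5.45 on the log2 scale (SE 1.28, unadjusted p = 0.00382, adjusted p = 0.0828 by edgeR) and Hspa1b by 5.33 (SE 1.36, unadjusted p = 0.00579, adjusted p = 0.0887). Both calls were lost with the replicate number as a block, where the differences were 4.45 (unadjusted p = 0.0201 by edgeR) and 4.27 (unadjusted p = 0.0370). The replicate numbers did not pair the libraries, as given below, so these losses do not show an effect of pairing. With 1 library left out, Hspa1a ranged from 4.42 (without MIRI 3) to 6.01 (without MIRI 2) and Hspa1b from 4.44 to 5.90 in the same fits, and both calls held only without MIRI 2. Among the small heat shock proteins, Hspb1 differed by 3.21 (SE 0.48, unadjusted p = 2.92e-04, adjusted p = 0.0607 by edgeR), Cryab by 1.32 (SE 0.32, unadjusted p = 0.00441) and Hspb7 by 0.92 (SE 0.20, unadjusted p = 0.00229). Hsp90aa1 differed by 1.92 (SE 0.38, unadjusted p = 0.00154). The log2 differences of the 4 members that were not called were 0.76 (SE 0.29) for Dnajb1, 0.72 (SE 0.36) for Hsph1, 0.62 (SE 0.21) for Hspa8 and 0.20 (SE 0.13) for Bag3. The 3 MIRI libraries lay above the 3 sham libraries in 7 members, against 17.4% of genes tested, and in Hspa1b, Hsph1 and Dnajb1 the groups overlapped through MIRI 2. With DESeq2, 7 members were called higher, against 5.34% of 27898 genes, and 6 had an adjusted p of at most 0.05, against 12.7% of 15997. Without MIRI 2 there were 9 calls, against 16.9% of genes called higher in that fit, and without MIRI 1 there were 3, against 2.90%. Without sham 1, sham 2 or sham 3 there were 2 each, against 2.39%, 2.25% and 2.41%.

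With the labels of MIRI 2 and GXNI 3 exchanged, 9 of 10 members were called higher in MIRI than in sham, all but Bag3, against 19.2% of 14853 genes called higher and 16.6% lower. Hspa1a then differed by 6.60 on the log2 scale (SE 0.54, adjusted p = 5.04e-05 by edgeR), Hspb1 by 3.69 (SE 0.25, adjusted p = 2.56e-05) and Hsp90aa1 by 2.42 (SE 0.20, adjusted p = 5.7e-05). All 9 called members had an adjusted p of at most 0.05 under this grouping, as did 53.3% of all genes tested.

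The question of the treatment, GXNI against MIRI, had different answers under the 2 groupings. As deposited, no member was called, with 0.0% of 14762 genes called higher and 0.0203% lower. The log2 differences ran from -0.30 (SE 0.88) for Hspb1 to 0.47 (SE 1.91) for Hspa1b, with 5 members positive and 5 negative. Of all genes tested, 7364 were positive and 7398 negative. An unadjusted p under 0.05 by edgeR was reached by 0 members and by 47 of the 14762 genes. Every adjusted p of the members was 1 by edgeR, and DESeq2 also called 0. The SE of 1.87 for Hspa1a leaves changes of several-fold in either direction within the error. A difference of this gene between the groups could thus be neither shown nor excluded. The error was smaller for other members, with an SE of 0.16 for Bag3 and 0.39 for Hspa8. GXNI and MIRI libraries overlapped in all 10 members, as in most genes. Only 1.32% of genes tested had all GXNI libraries above all MIRI libraries, and 1.51% had all below. Hspa1a ranged from 3.03 to 179.8 CPM in the MIRI and from 2.497 to 334.3 CPM in the GXNI group.

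With the labels exchanged, 7 members were called lower in GXNI than in MIRI and none higher, against 10.7% of genes called lower and 8.56% higher. Hspa1a differed by -5.74 on the log2 scale (SE 0.58, unadjusted p = 8.94e-06, adjusted p = 0.0143 by edgeR) and Hspa1b by -5.72 (SE 0.71, unadjusted p = 4.14e-05, adjusted p = 0.0143). Hsp90aa1 differed by -1.43 (SE 0.31), Dnajb1 by -1.30 (SE 0.22), Hsph1 by -1.27 (SE 0.37), Cryab by -1.16 (SE 0.32) and Hspa8 by -0.76 (SE 0.23), all called lower. Hspb1 at -1.80 (SE 0.54, unadjusted p = 0.01001 by edgeR) just missed the threshold and was called with DESeq2, while Hspb7 at -0.48 (SE 0.32) and Bag3 at -0.06 (SE 0.14) were not called by either tool. In terms of libraries, this grouping sets MIRI 1, MIRI 3 and the library labelled GXNI 3, which were the 3 highest of all 9 libraries in 7 of 10 members and in 20.4% of genes tested, against MIRI 2, GXNI 1 and GXNI 2. With both doubtful libraries left out, 2 libraries a group remained, and 3 members were called lower in GXNI and none higher, against 3.47% of genes called lower and 1.52% higher. Hspa1a then differed by -5.02. This comparison shares its MIRI libraries with MIRI against sham, so that the 2 are not independent.

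**Figure D4:**
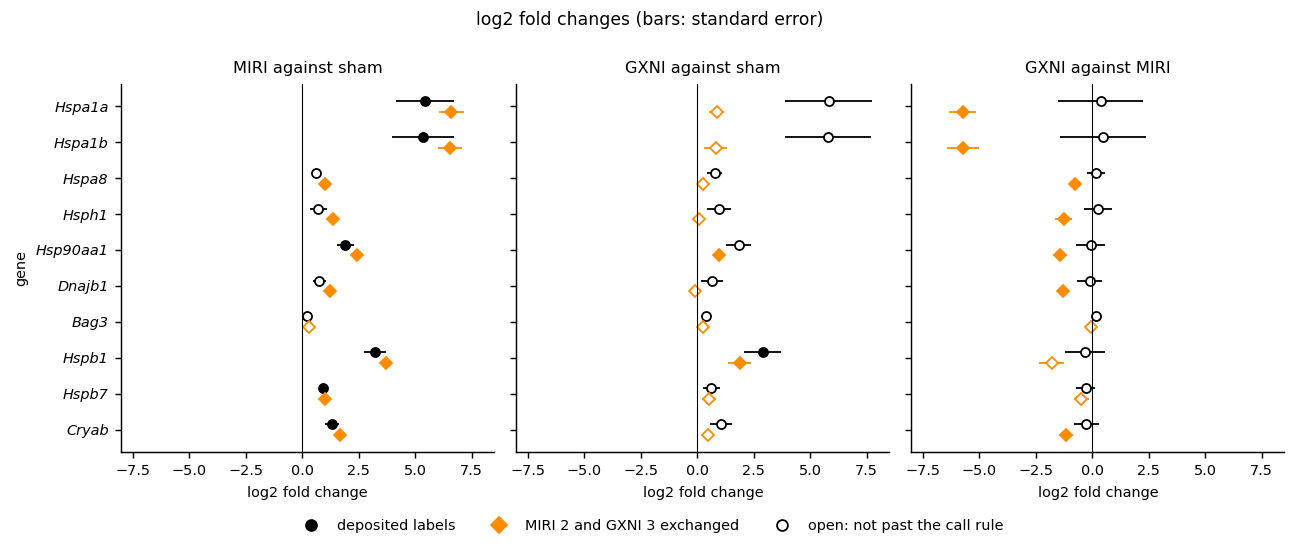
log2 fold change (x axis, bars give the standard error) of each gene (y axis) in 3 comparisons, with the deposited labels (black circles) and with MIRI 2 and GXNI 3 exchanged (orange diamonds), where open symbols did not pass the call rule. In GXNI against MIRI, Hspa1a lies at 0.37 as deposited and at -5.74 when exchanged.

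In GXNI against sham, 1 of 10 members was called as deposited, against 2.67% of 14695 genes called higher and 1.54% lower. It was Hspb1, at 2.90 on the log2 scale (SE 0.82, unadjusted p = 0.00989, adjusted p = 0.219 by edgeR), and the call was lost with RLE scaling, with the replicate number as a block and on leaving out any 1 library but GXNI 1. Hspa1a differed by 5.81 (SE 1.92, unadjusted p = 0.0196 by edgeR) and Hsp90aa1 by 1.84 (SE 0.55, unadjusted p = 0.0126). The value of Hspa1a rests on GXNI 3, without which it was 0.98, and it was 2.77 with the replicate number as a block. Those of Hspa1b were 5.79 (SE 1.90), 1.14 and 2.77 in the same order, and Hsp90aa1 was at 1.02 without GXNI 3. Without GXNI 1, the library nearest to sham, 8 members were called higher, against 10.7% of genes. With the labels exchanged, 2 members were called higher, Hspb1 by 1.88 (SE 0.51, unadjusted p = 0.00678, adjusted p = 0.182 by edgeR) and Hsp90aa1 by 0.98 (SE 0.26, unadjusted p = 0.0063, adjusted p = 0.180), against 2.16% of 14599 genes called higher and 1.56% lower, and Hspa1a differed by 0.86 (SE 0.33).

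The libraries could be ordered by how many members were above the highest sham library. All 10 were in MIRI 1, MIRI 3 and GXNI 3, 9 in GXNI 2, 7 in MIRI 2 and 4 in GXNI 1. Below the lowest sham library were 4 members in GXNI 1, against 30.5% of all genes, 2 in MIRI 2, against 32.0%, and 1 in GXNI 2, against 36.6%. The share of all genes above the highest sham library was 31.4% in GXNI 1 and 33.9 to 41.3% in the other 5 libraries. The median log2 ratio to the sham mean over the members was 1.83 in GXNI 3, 1.62 in MIRI 3, 0.97 in MIRI 1, 0.87 in GXNI 2, 0.37 in MIRI 2 and 0.03 in GXNI 1, while the median over all genes was within 0.02 of 0 in each library.

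The wider chaperone network was described by a list of 72 genes of 9 classes without the members. All 72 were found and 70 passed the filter on low counts. In all ischemia-reperfusion libraries against sham, 7 were called higher and 1 lower, against the same 5.52% and 2.85% of all genes, and their median log2 difference was 0.05. Among relatives of the HSP70 family 2 of 11 were called higher, Hyou1, an exchange factor and chaperone of the endoplasmic reticulum, by 1.36 (SE 0.28, unadjusted p = 6.20e-04 by edgeR) and Hspa13 by 0.60 (SE 0.16). Hyou1 was at 42.9 to 55.5 CPM in sham, 79.5 to 157.2 CPM in MIRI and 86.6 to 180.0 CPM in GXNI libraries, so that GXNI 1 too was above sham. The most abundant of the family, Hspa5 (BiP), differed by 0.44 (SE 0.24) and was not called. Serpinh1, the collagen chaperone HSP47, was called higher by 1.07 (SE 0.27, unadjusted p = 0.00258 by edgeR) and was above sham in all 6 libraries, at 174.5 to 205.6 CPM in sham against 263.0 to 570.7 CPM.

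Of 10 chaperonins, which form a barrel that folds actin, tubulin and mitochondrial proteins, 3 were called higher and none lower, all subunits of the cytosolic CCT ring. They were Cct6a by 0.86 (SE 0.23), Cct3 by 0.84 (SE 0.23) and Cct5 by 0.59 (SE 0.18), and the class median was 0.47. The mitochondrial Hspd1, the most abundant of the class, differed by -0.04 (SE 0.14). Of 5 small heat shock proteins tested, Hspb2 was called higher by 0.62 (SE 0.17), while the most abundant, Hspb6, differed by 0.44 (SE 0.17) and was not called. Fkbp4, an immunophilin that binds HSP90, was the only gene of the list called lower, by -0.67 (SE 0.17, unadjusted p = 0.00291 by edgeR), and it was the most abundant of the 13 HSP90 co-chaperones and adaptors. It was at 266.8 to 307.6 CPM in sham, 135.6 to 234.0 CPM in MIRI and 151.9 to 207.3 CPM in GXNI libraries.

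None of the 16 other HSP40 genes, the 7 BAG and exchange factor genes, the 3 other HSP90 genes or the 4 genes of the heat shock factor class, which holds 3 factors and the factor-binding protein Hsbp1, was called in that comparison. The most abundant were Dnaja2 at -0.32 (SE 0.10), Bag1 at -0.19 (SE 0.10), Hsp90ab1 at 0.05 (SE 0.14) and Hsbp1 at -0.20 (SE 0.10). Transcripts of Hsf1, the factor itself, were at 26.8 to 30.5 CPM in sham and 26.2 to 31.8 CPM in the other libraries, so that the groups overlapped. Of the 70 listed genes tested in MIRI against sham, 11 were called higher and 0 lower, against 6.15% and 2.82% of all genes. Of the 11, 5 were chaperonins. In GXNI against MIRI none was called, against 0.0% and 0.0203%. In GXNI against sham 3 were called higher (Serpinh1, Hyou1 and Hspa13) and 1 lower (Fkbp4), against 2.67% and 1.54%. Under the exchanged labels, the injury comparison (MIRI against sham) had 18 higher and 4 lower calls, against 19.2% and 16.6%. The treatment comparison (GXNI against MIRI) had 2 higher and 3 lower, both under the 8.56% and 10.7% of all genes. Those 3 were Dnaja4 at -0.84 (SE 0.23), Dnaja1 at -0.68 (SE 0.17) and Cct8 at -0.63 (SE 0.18), and the 2 were Hspa12a at 1.11 (SE 0.31) and Unc45b at 0.64 (SE 0.14).

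**Figure D5:**
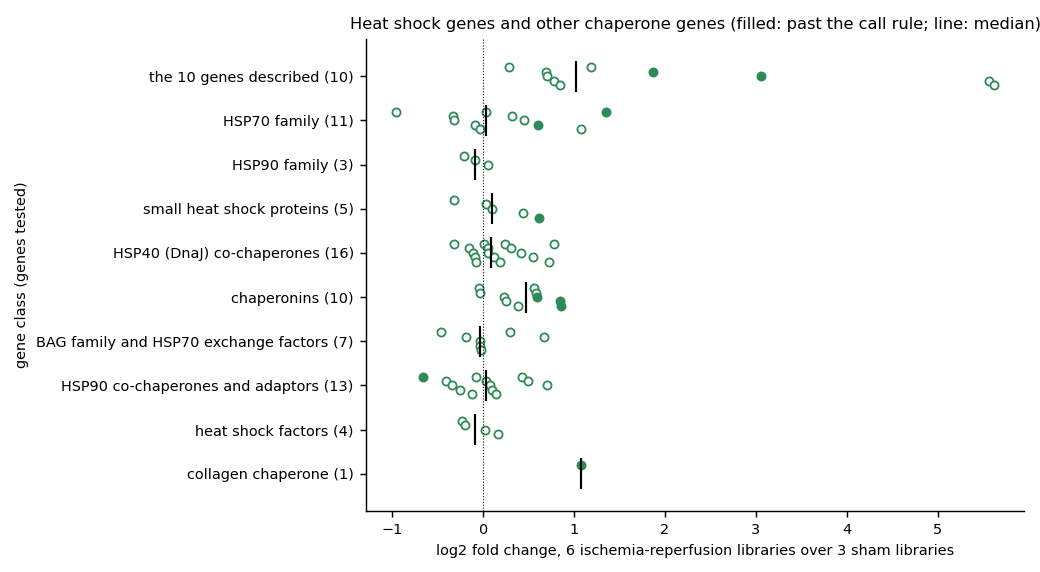
log2 fold change of the 6 ischemia-reperfusion libraries over the 3 sham libraries (x axis) for the 10 genes described and for each class of the other chaperone genes (y axis, with the number tested), where filled points passed the call rule and the line marks the median. The 10 genes are all above 0 with a median of 1.02, and the medians of the other classes of more than 1 gene lie between -0.09 and 0.47.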

How the data were processed

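RNA-seq libraries of 9 hearts were made from TRIzol extracts. Per the labels and methods, the authors trimmed reads for quality, adapters and unknown bases, used HISAT2 for alignment (genome build mm10) and deposited featureCounts (Subread) raw counts per gene. Versions, annotation release, strand setting and the handling of reads that match several genes are not given in the sources used here. The authors' tables of fold changes and p-values came from DESeq2.

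All 54532 gene IDs entered edgeR 4.0.16 (R 4.3.3, filterByExpr, TMM, glmQLFit and glmQLFTest), fitted on the libraries compared. SE was taken as the log2 fold change over the root of F. DESeq2 1.42.0, RLE scaling, no filter, the replicate block, all libraries in 1 fit, an adjusted p of 0.05, Hspa1a and Hspa1b added, exchanged labels and each library left out were alternatives. Exchanged labels with DESeq2 were added after seeing the data. The tests were checked on counts simulated from the sham means with the same dispersion for every gene. All 200 changed genes, each with a change of 2 in size on the log2 scale, were called. Smaller changes, such as those of most members, were not simulated. The equal dispersion also does not match genes that vary widely within a group, such as Hspa1a. Error rates for such genes were not measured. Gene positions came from GENCODE M21 (GRCm38, the same build as mm10). Totals of 17119454 to 22811295 counts and 3 mice per group limit precision. No pair of libraries agreed within sampling noise (smallest chi-square per degree of freedom 13.2).

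The label check compared the published log2 fold changes with those of 1680 choices of 3 against 3 libraries. For injury against sham (1709 genes) the median absolute difference was 0.00495 with MIRI 2 and GXNI 3 exchanged, 0.117 for the next choice and 0.406 as deposited. For GXNI against injury (1923 genes) these were 0.00486, 0.0798 and 0.751.

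Named were all members, the chaperone genes called against sham or most abundant in a class, genomic neighbours, and the genes most like Hspa1a and Hspb7. Genes of the exchanged GXNI against MIRI calls, Hsf1 and the look-alike genes were named after their values were seen. The members and lists were chosen with earlier results of these data known.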

Additional observations from a re-analysis of the deposited data

Results flagged for a closer look

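Hspb7 stood apart in 1 library. GXNI 1 was at 1775 CPM, while the other 5 ischemia-reperfusion libraries were at 4141 CPM or more. On the log2 scale this gap was 0.755 of the whole range of the 6 libraries, above Dixon's critical value at 95%. The sham libraries were at 2241 to 2649 CPM. Groups of 3 libraries were not examined, and chance flags about 1 in 20 groups. GXNI 1 also had the highest sum of mesothelial markers, 67.4 CPM, and the part of this in the value of Hspb7 was not tested.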

How the results depend on the processing

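All 10 members kept a positive sign in MIRI against sham and in all ischemia-reperfusion against sham under every alternative run. With an adjusted p of at most 0.05 in edgeR, 0 members and 0 other chaperone genes were called in any comparison with deposited labels. The share of all genes called moved between fits as well. In all ischemia-reperfusion against sham it was 1.63% called higher without sham 2 and 9.67% without MIRI 2. The counts of this section therefore describe the dependence on the processing and are not a result about the members. In all ischemia-reperfusion against sham, 5 members were called with DESeq2, 5 without the filter, 4 without MIRI 2 and GXNI 3 together and 0 to 6 with 1 library left out (other chaperone genes 1 to 15). In MIRI against sham, 2 members and 5 other chaperone genes were called with all 9 libraries in 1 fit, 9 and 22 with exchanged labels by either tool, and 2 to 9 and 4 to 19 with 1 library left out. In GXNI against MIRI, 7 members and 5 others were called with exchanged labels, 8 and 8 with exchanged labels and DESeq2, 3 members without both doubtful libraries, and 0 with any 1 library left out. In GXNI against sham, members called numbered 2 with DESeq2, 0 with RLE scaling, 4 without the filter, 2 with exchanged labels by either tool and 0 to 8 with 1 library left out, and other chaperone genes 2 with exchanged labels by either tool and 2 to 15 with 1 left out. DESeq2 gave no p for Hspa1a and Hspa1b in GXNI against sham. The causes of these shifts were not tested.

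In GXNI against MIRI the sign turned for Hspa1a (-5.74 exchanged, -5.76 exchanged with DESeq2, -5.02 without both doubtful libraries, -4.45 to 1.39 with 1 left out), Hspa1b (-5.72, -5.75, -4.75 and -4.17 to 1.35), Hspa8 (-0.76, -0.77, -0.48 and -0.31 to 0.43) and Hsph1 (-1.27, -1.28, -0.82 and -0.53 to 0.71), and for Bag3 (-0.062 exchanged, -0.077 with DESeq2). With 1 library left out it also turned for Hsp90aa1 (-0.88 to 0.35), Dnajb1 (-0.93 to 0.23), Hspb1 (-1.38 to 0.28), Hspb7 (-0.56 to 0.037) and Cryab (-0.90 to 0.12). In GXNI against sham it turned for Dnajb1 (-0.10 exchanged, -0.11 with DESeq2, -0.18 to 0.95 with 1 left out).

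The replicate numbers did not pair the libraries: the 9 same-number correlations of deviations ran from -0.443 to 0.701, and 2, 3 and 4 of 6 libraries correlated best with their own number in the 3 comparisons of 2 groups. With the replicate block, members called were 2 in all ischemia-reperfusion against sham, 4 in MIRI against sham (Hspa1a and Hspa1b were lost), 0 in GXNI against MIRI and 0 in GXNI against sham, where 2 other chaperone genes were called, and Hspa1a and Hspa1b turned to -0.60 and -0.082 in GXNI against MIRI.

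Over all genes, DESeq2 called 1519 higher and 677 lower of 29344 in all ischemia-reperfusion against sham (edgeR 840 and 434 of 15207), 1491 and 760 of 27901 in MIRI against sham (900 and 413 of 14644), 4 and 7 of 28128 in GXNI against MIRI (0 and 3 of 14762) and 994 and 407 of 27966 in GXNI against sham (392 and 226 of 14695).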

Other observations

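Across the 9 libraries, the genes whose log2 CPM followed Hspa1a most closely among 13438 genes were Ero1l (Pearson's r 0.9985), Rassf1 (0.994) and Sipa1l3 (0.9935). Ero1l encodes an oxidase of the endoplasmic reticulum that forms disulfide bonds in new proteins. Ero1l was at 13.9 to 16.6 CPM in sham, at 84.9, 17.3 and 121.5 CPM in MIRI 1 to 3 and at 15.3, 23.6 and 161.0 CPM in GXNI 1 to 3, and its 5 highest libraries had the same order as those of Hspa1a. The genes closest to Hspb7 were Cxcr6 (0.9875), Tbcc (0.9855) and Rab3ip (0.9854). Cxcr6 was at 0.396 to 1.225 CPM in sham, at 6.13, 5.64 and 18.3 CPM in MIRI and at 0.200, 8.92 and 8.13 CPM in GXNI libraries. Its value in GXNI 1 was near the level of 3 counts, and its sham values were low as well. Tbcc, a tubulin folding cofactor, was at 10.4 to 11.2 CPM in sham, at 16.1, 16.1 and 19.8 CPM in MIRI and at 10.1, 17.3 and 17.9 CPM in GXNI libraries, so that MIRI 1 and MIRI 2 were alike and GXNI 1 was near sham. These are descriptions over 9 libraries that share their groups and scaling, and the genes were picked as the highest of all.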
